A study of Mus musculus with 28 samples.

Results

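The DUSP and Sprouty feedback inhibitors of MAPK signalling are described here across regulatory T cells of tumor and spleen. Of 8 genes named for the group, 7 were analysed, out of 13103 genes in the table, and the other was not analysed here. They were chosen by name, with earlier results of these data known: Dusp1, Dusp2, Dusp5, Dusp6, Dusp10, Spry1 and Spry2. All 7 passed the filter on low values, Spry2 only through its spleen samples. Regulatory T cells (Tregs) were stained for CD45, CD3, CD4 and OX40, a costimulatory TNF receptor encoded by Tnfrsf4, and cells with GFP were sorted by a high or a low OX40 signal. The animals were Foxp3-GFP mice, in which GFP reports the Treg transcription factor Foxp3. All carried B16 melanoma, implanted in the skin as 500000 cells and taken with the spleen after 7 to 10 days, and no tumor-free mice are among the groups. The groups are tumor OX40plus and tumor OX40minus (4 mice each) and spleen OX40plus and spleen OX40minus (3 mice each). The labels give neither age nor sex.

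Mitogen-activated protein kinases (MAPKs), the ERK, p38 and JNK kinases, are switched on by phosphorylation of a threonine and a tyrosine. DUSP phosphatases of the MAPK phosphatase class remove both phosphates, and Sprouty proteins act further upstream, where they restrain Ras and RAF. Many of these genes are induced by the kinases they oppose, so they form negative feedback loops. In T cells the antigen receptor turns on ERK through the Ras activator RasGRP1.

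Each sample is the mean of 2 libraries of 1 mouse and gate, which were close to sampling noise apart. A sample held 22.4 M to 29.6 M estimated counts, and a level of 3 counts is 0.104 to 0.13 CPM (read counts scaled to equal library totals). Tnfrsf4 followed the gates in every sample of both tissues, with 218 to 298 CPM in spleen OX40minus, 588 to 810 in spleen OX40plus, 1816 to 2159 in tumor OX40minus and 3166 to 3583 in tumor OX40plus. All 7 Treg markers examined were detected in every group. Markers of other cells were present at lower levels: 9 macrophage genes summed to 739 to 942 CPM in spleen OX40minus, 82.0 to 197 in spleen OX40plus, 221 to 333 in tumor OX40minus and 51.9 to 65.7 in tumor OX40plus. The 6 B cell genes measured summed to 463 to 698 CPM over the spleen samples and 1.35 to 7.18 over the tumor samples. For 5 melanoma genes the sums were 12.6 to 22.4 CPM over the spleen samples and 68.4 to 181 over the tumor samples. Tumor OX40plus mice 1 and 4 and spleen OX40plus mouse 3 stood furthest from their groups. The median over genes of the chi-square between mice of a group reached 13 for the tumor mice and 6.29 for the spleen mouse, where sampling alone gives 0.455.

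Dusp1, Dusp5 and Dusp10 transcripts were higher in tumor than in spleen Tregs, and Dusp6, Spry1 and, by a small margin, Dusp2 were lower. Spry2, which passed the filter through its spleen samples alone, is given by its counts and no tissue call of it is counted. Between the gates, Dusp1 was higher in OX40plus Tregs of the spleen and lower in OX40plus Tregs of the tumor. Dusp5 had the same directions, with a difference in tumors at the edge of the threshold. Dusp6 was lower in tumor OX40plus than in tumor OX40minus Tregs. A gene is said here to be called, or to be higher or lower, when its p from limma, adjusted by Benjamini-Hochberg over the 12509 genes tested, is under 0.05. Differences are on the log2 CPM scale, with their SE.

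In the tumor OX40 contrast 3 of 7 members were called, all lower in OX40plus, against 20.0% of all tested genes called lower and 38.5% called in either direction. The members' median was -0.31, against -0.07 over all tested genes. In the spleen contrast 2 of 7 were called, both higher, against 4.39% of all genes called higher and 7.99% in either direction, and the median was 0.03 against 0.01. In the difference of the OX40 differences 2 of 7 were called, both lower, against 6.38% of all genes called lower, 4.53% called higher and 10.9% in either direction, with a median of -0.60 against -0.06. Without Spry2, all 6 other members were called between tissues in each gate, 3 higher and 3 lower in tumors. This is read against 64.5% of all genes called in OX40plus, 30.3% higher and 34.2% lower, and 59.1% in OX40minus, 29.7% higher and 29.3% lower. In tumors 2 of 7 members had gates that did not overlap, against 33.0% of all genes, and in spleens 4 of 7 did, against 31.9%. Between tissues, again without Spry2, 5 of 6 members did not overlap in OX40plus, against 63.1%, and all 6 in OX40minus, against 63.3%. The contrasts of tissue share their samples with the contrasts of gate.

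**Figure D1:**
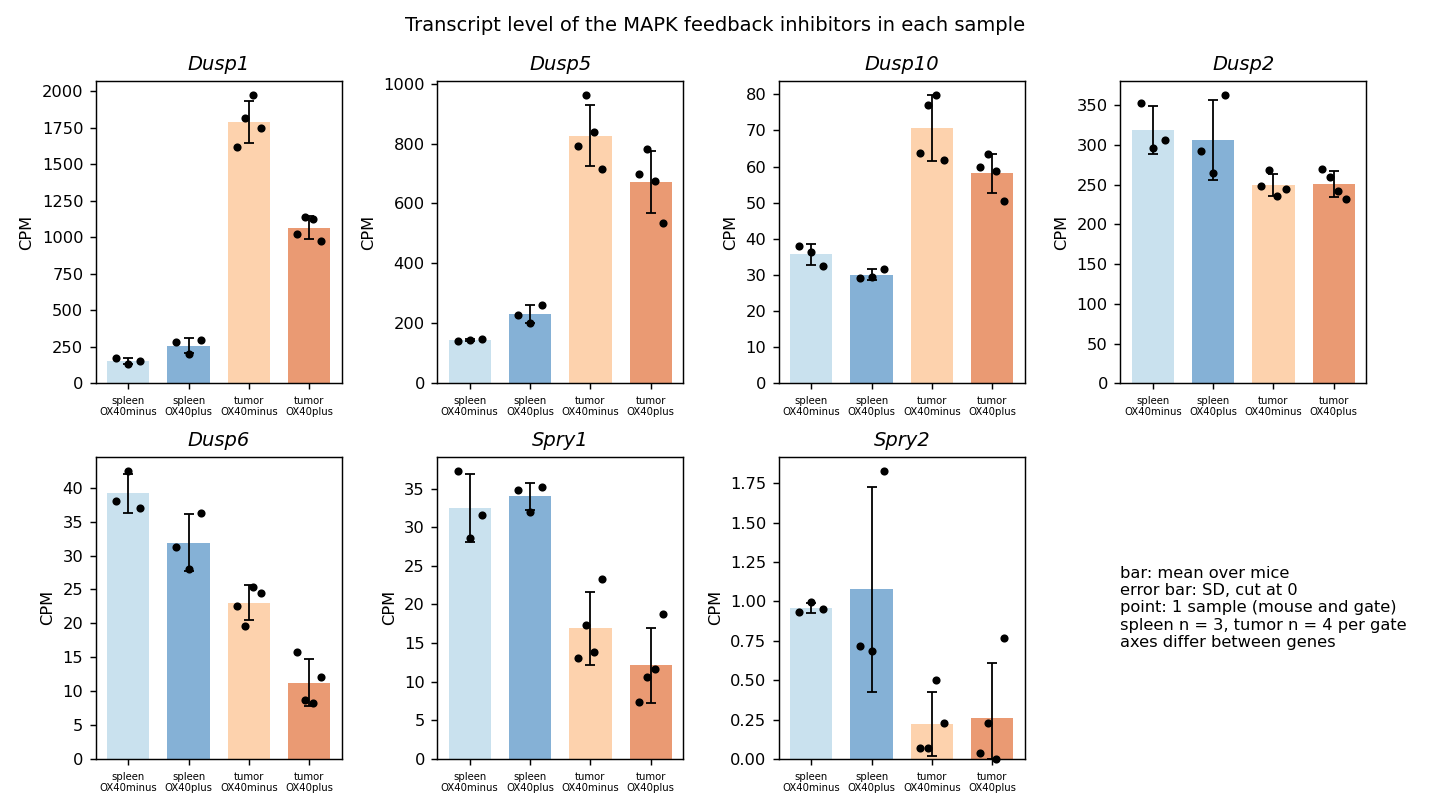
CPM of each gene by group, with 1 panel and 1 vertical axis per gene. Bars are means over mice, error bars are SDs and points are samples. Dusp1 and Dusp5 stand higher in all tumor samples than in any spleen sample, and Dusp6 and Spry1 stand lower.

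Dusp1 encodes MKP-1, a nuclear phosphatase that acts mainly on p38 and JNK. It lies on chromosome 17, 26505591 to 26508472, minus strand (RefSeq, GRCm38.p6, the same assembly as mm10). In spleen OX40minus Tregs it was at 171, 132 and 155 CPM in mice 1 to 3, and in spleen OX40plus at 281, 198 and 293 CPM. In tumor OX40minus it was at 1622, 1817, 1972 and 1747 CPM in mice 1 to 4, and in tumor OX40plus at 1020, 1137, 1127 and 977 CPM. None of the 4 groups overlapped with another. Within spleens OX40plus exceeded OX40minus in 3 of 3 mice, and within tumors it was lower in 4 of 4.

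The OX40 difference of Dusp1 was 0.74 ± 0.14 in spleens (limma, adjusted p = 0.00254). In tumors it was -0.75 ± 0.12 (adjusted p = 0.000144). The difference between these differences, tumor minus spleen, was -1.49 ± 0.18 (adjusted p = 0.000129). In bulk RNA of this kind, fewer cells with a transcript and less transcript per cell cannot be told apart.

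The tissue difference of Dusp1 was larger than its OX40 difference. It was higher in tumors by a log2 fold change of 3.56 ± 0.13 among OX40minus Tregs, an 11.8-fold difference (adjusted p = 3.15e-12), and by 2.07 ± 0.13 among OX40plus Tregs, a 4.20-fold difference (adjusted p = 1.05e-09). The order of levels was tumor OX40minus, tumor OX40plus, spleen OX40plus, spleen OX40minus, and each neighbouring pair was called. The span between the highest and the lowest group mean, 3.56, was larger than that of 90.7% of tested genes, whose median span was 1.24.

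Dusp1 is often counted among the genes that enzymatic digestion of a tissue induces. The 16 other such genes measured, Fos, Jun and heat shock genes among them, summed to 13870 to 15310 CPM in tumor OX40minus, 9943 to 10770 in tumor OX40plus, 6292 to 7756 in spleen OX40minus and 5372 to 6627 in spleen OX40plus. Their sum was thus higher in tumors and, in tumors, higher in OX40minus, as Dusp1 was. Not every gene followed the sum: 11 of the 16 were lower in tumor OX40plus and 1 was higher. Hspa8, from the heat shock genes, had means of 2795 CPM in tumor OX40plus and 1925 in tumor OX40minus. The other heat shock genes did not share its pattern. In the same order, Hspa1a had means of 85.4 and 142.4 CPM and Hspa1b 126.5 and 203.9. Dnaja1 had means of 379 and 364 CPM, and Dnajb1 198 and 188. In spleens the gates overlapped in this sum, while Dusp1 was higher in OX40plus without overlap. The part of digestion in the Dusp1 differences was not tested. Of 9 macrophage markers 8 were lower in OX40plus in each tissue, where 20.0% of all genes were called lower in tumors and 3.60% in spleens. In tumors 6 dendritic cell genes also summed lower in OX40plus (37.9 to 67.3 CPM against 134 to 193, 4 of 6 called lower), as did 6 NK and CD8 T cell genes (41.9 to 57.5 CPM against 67.8 to 114, 5 of 6 called lower). The part of these cells in the gate differences of Dusp1, Dusp5 and Dusp6 was not tested. In spleens the dendritic cell genes summed to 43.1 to 49.1 CPM in OX40minus and 14.6 to 19.2 in OX40plus. The part of dendritic and melanoma cells in the higher tumor levels of Dusp1, Dusp5 and Dusp10 was not tested either.

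Dusp5 encodes a nuclear phosphatase specific for ERK. It lies on chromosome 19, 53529145 to 53541809, plus strand, and the span of an antisense gene, AC137853.2, overlaps it. Whether their exons overlap was not examined, and whether counting used strand is not given. The part of AC137853.2 in the Dusp5 values was not tested. In spleen OX40minus Tregs it was at 141, 145 and 149 CPM, and in spleen OX40plus at 228, 202 and 262 CPM. In tumor OX40minus it was at 791, 961, 840 and 715 CPM, and in tumor OX40plus at 697, 782, 674 and 534 CPM. The spleen gates did not overlap and the tumor gates did, although OX40plus was the lower gate in 4 of 4 tumor mice and the higher in 3 of 3 spleen mice.

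The spleen OX40 difference of Dusp5 was 0.66 ± 0.14 (adjusted p = 0.00506). The tumor difference was -0.31 ± 0.12 (adjusted p = 0.0495), at the edge of the threshold. It was not called in 15 of the 25 alternative settings, among them the tumor groups fitted alone (adjusted p = 0.078). Leaving out any of tumor OX40plus mice 1, 3 and 4, tumor OX40minus mice 1 to 3, spleen OX40minus mice 1 to 3 or spleen OX40plus mouse 1 ended the call, with an adjusted p of at most 0.154 and differences of -0.33 to -0.20. It was called with the mouse as a replicate block (adjusted p = 0.017). The difference between tissues in the OX40 difference was -0.97 ± 0.18 (adjusted p = 0.0028), and it was called in all 24 settings tried. Dusp5 was higher in tumors by 2.50 ± 0.13 among OX40minus Tregs, a 5.67-fold difference (adjusted p = 1.2e-10), and by 1.54 ± 0.13 among OX40plus Tregs, a 2.90-fold difference (adjusted p = 2.48e-08). Its order of groups was that of Dusp1, with each neighbouring pair called.

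**Figure D2:**
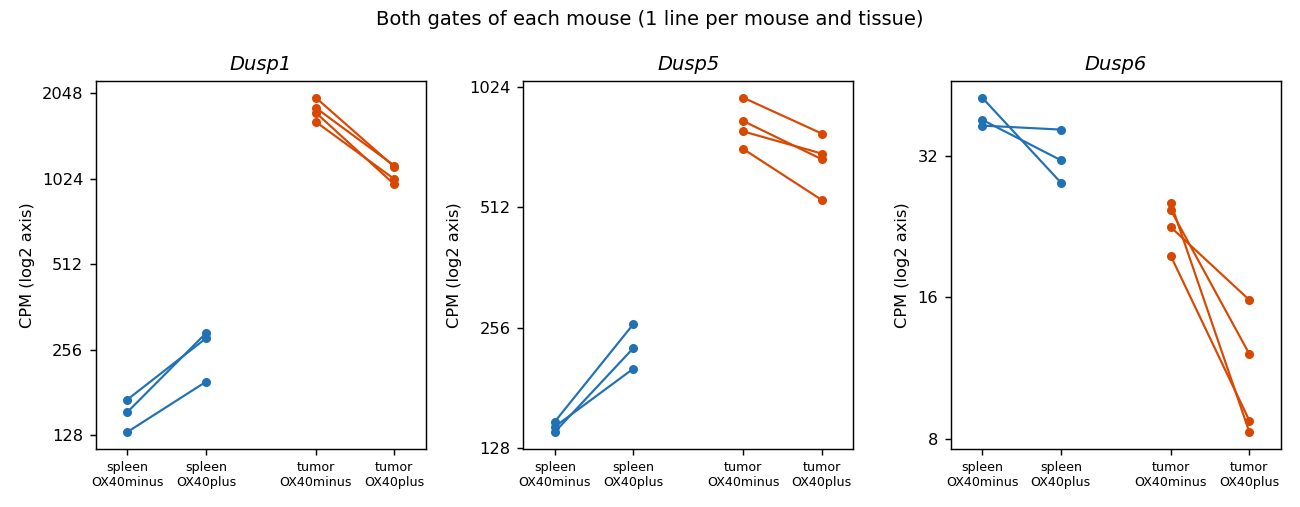
CPM on a log2 axis of Dusp1, Dusp5 and Dusp6 in OX40minus and OX40plus Tregs, with 1 line joining the gates of each mouse within a tissue. Dusp1 and Dusp5 lines rise in all 3 spleens and fall in all 4 tumors, and Dusp6 lines fall in all 7, the smallest by 0.03 on the log2 scale.

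Among all genes, 36 of 12509, or 0.288%, were called lower in tumor OX40plus and higher in spleen OX40plus, and 14, or 0.112%, were called the other way. Dusp1 and Dusp5 are 2 of the 36, Dusp5 with the borderline tumor call given above. The OX40 contrasts of the tissues share no samples.

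The promoter windows of Dusp1 and Dusp5, the members whose OX40 difference went opposite ways in the tissues, are shown because both hold letters matching motifs of factors that respond to signalling. Each window runs from 250 bases before the RefSeq transcription start to 50 after it, 5′ to 3′ on the gene's strand (GRCm38.p6), at chr17:26508423-26508722 for Dusp1 and chr19:53528895-53529194 for Dusp5. Capitals mark the cAMP response element TGACGTCA, its shorter form TGACG, and CArG boxes, the sites bound by serum response factor, on either strand. TGACGTCA contains TGACG on both strands.
Dusp1: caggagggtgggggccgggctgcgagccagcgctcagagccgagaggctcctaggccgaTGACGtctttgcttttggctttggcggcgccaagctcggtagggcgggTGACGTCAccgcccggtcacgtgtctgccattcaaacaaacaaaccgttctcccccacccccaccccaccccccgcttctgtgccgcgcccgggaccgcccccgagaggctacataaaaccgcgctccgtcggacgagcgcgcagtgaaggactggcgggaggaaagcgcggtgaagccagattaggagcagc
Dusp5: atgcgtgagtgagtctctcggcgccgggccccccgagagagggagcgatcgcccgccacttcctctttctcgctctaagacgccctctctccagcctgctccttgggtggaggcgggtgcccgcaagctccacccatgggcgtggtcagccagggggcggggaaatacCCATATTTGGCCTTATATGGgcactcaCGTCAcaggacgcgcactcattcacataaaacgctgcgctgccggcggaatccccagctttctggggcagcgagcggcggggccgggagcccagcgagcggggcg
The Dusp1 window held 1 TGACGTCA, 143 to 136 bases before the start, and a further TGACG 191 to 187 bases before it. The Dusp5 window held 2 adjoining CArG boxes, CCATATTTGG and CCTTATATGG, between 82 and 63 bases before the start, and a TGACG on the other strand 55 to 51 bases before it. TGACGTCA occurs in 1.79% of 32851 such windows, a CArG box in 1.63% and TGACG in 20.8%. The other 5 windows held neither TGACGTCA nor a CArG box, and Dusp2 held a TGACG 6 to 10 bases after its start. The AP-1 site TGANTCA, found in 7.81% of all windows, was in none of the 7. These are matches of letters and not measured binding.

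Dusp10 encodes MKP-5, a phosphatase for p38 and JNK (chromosome 1, 184034381 to 184075636, plus strand). It was at 38.03, 36.5 and 32.5 CPM in spleen OX40minus, 29.0, 29.5 and 31.7 in spleen OX40plus, 63.8, 77.1, 79.7 and 61.9 in tumor OX40minus, and 59.8, 63.5, 58.8 and 50.6 in tumor OX40plus. Every tumor sample exceeded every spleen sample. The tissue difference was nearly the same in both gates, at 0.98 ± 0.12 in OX40minus (adjusted p = 2.96e-06) and 0.95 ± 0.12 in OX40plus (adjusted p = 3.08e-06), folds of 1.97 and 1.93. The difference between these was -0.03, with a 95% interval from -0.39 to 0.33. The gate difference was not called in tumors (-0.28, adjusted p = 0.0582) or spleens (-0.25, adjusted p = 0.355), although OX40plus was the lower sample in all 7 mice. In tumors it was called in 6 of 25 alternative settings, among them without tumor OX40minus mouse 1 (adjusted p = 0.046) or 4 (0.0363) and without tumor OX40plus mouse 2 (0.046).

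Dusp2, also named PAC1, encodes a nuclear phosphatase of activated lymphocytes (chromosome 2, 127336159 to 127338377, plus strand). It was at 353, 297 and 306 CPM in spleen OX40minus, 293, 264 and 363 in spleen OX40plus, 249, 268, 236 and 245 in tumor OX40minus, and 269, 260, 242 and 232 in tumor OX40plus. Its values varied least of the 7 genes, with a span of 0.35 between group means, smaller than in all but 7.12% of tested genes. The OX40 difference was 0.01 in tumors, with a 95% interval from -0.20 to 0.21, and -0.06 in spleens, from -0.30 to 0.17. Neither interval reaches the size of the Dusp1 difference. Dusp2 was lower in tumors in OX40minus (-0.35 ± 0.10, adjusted p = 0.00835) and in OX40plus (-0.28 ± 0.10, adjusted p = 0.0277). The second was -0.15 without spleen OX40plus mouse 3 (adjusted p = 0.187) and had an adjusted p = 0.0608 without tumor OX40plus mouse 3 and likewise without mouse 4, and the first had an adjusted p = 0.0516 without spleen OX40minus mouse 1.

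Dusp6 encodes MKP-3, a cytoplasmic phosphatase specific for ERK and a common readout of ERK activity (chromosome 10, 99263231 to 99267489, plus strand). In spleens it was at 38.1, 42.5 and 37.1 CPM in OX40minus and 31.3, 28.0 and 36.3 in OX40plus. In tumors it was at 22.6, 19.6, 25.4 and 24.5 CPM in OX40minus and 15.8, 8.76, 8.29 and 12.1 in OX40plus. The 4 groups descended in that order without overlap between neighbours. The tumor OX40 difference was -1.08 ± 0.19 (adjusted p = 0.000273), a 2.11-fold lower level in OX40plus. The spleen difference was -0.30 ± 0.21 and was not called (adjusted p = 0.582).

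Between tissues, Dusp6 was lower in tumors in OX40minus (-0.77 ± 0.20, adjusted p = 0.00343) and in OX40plus (-1.55 ± 0.20, adjusted p = 4.62e-06). The difference in the OX40 difference between tissues, -0.77 ± 0.28, was not called (adjusted p = 0.0947), so it is not shown that tumors and spleens differ in it. Without tumor OX40plus mouse 1, the highest sample of its group, it was -0.95 (adjusted p = 0.016). The sums of the macrophage, dendritic, NK and CD8 T cell markers and of the dissociation genes were lower in tumor OX40plus too, as given above. The part of these cells and of dissociation in the Dusp6 difference was not tested.

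Spry1 encodes Sprouty1, an inhibitor of Ras and ERK signalling (chromosome 3, 37639947 to 37644599, plus strand, overlapped on the other strand by the unclassified model Gm42922). In spleens it was at 37.3, 28.6 and 31.6 CPM in OX40minus and 34.8, 31.9 and 35.2 in OX40plus. In tumors it was at 13.1, 17.4, 13.8 and 23.4 CPM in OX40minus and 7.35, 10.7, 11.7 and 18.8 in OX40plus. Spleen samples all exceeded tumor samples, and the gates overlapped in each tissue. Tumors were lower in OX40minus (-0.97 ± 0.26, adjusted p = 0.00422) and in OX40plus (-1.57 ± 0.26, adjusted p = 6.02e-05). B cell markers were also far lower in tumor samples, with the sums given above, and their part in the lower tumor levels of Spry1, Spry2, Dusp6 and Dusp2 was not tested.

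The tumor OX40 difference of Spry1 was -0.52 ± 0.24 and was not called (adjusted p = 0.0985), although OX40plus was the lower sample in 4 of 4 mice. It was called with the mouse as a replicate block (-0.52, adjusted p = 0.0225) and without tumor OX40plus mouse 4, whose 18.8 CPM was the highest of its group (-0.76, adjusted p = 0.0099). That mouse also had the highest OX40minus value. In spleens the difference was 0.07, with a 95% interval from -0.52 to 0.66.

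Spry2, which encodes Sprouty2 (chromosome 14, 105891947 to 105896819, minus strand), was near the limit of detection. Its counts were 24, 24 and 23 in spleen OX40minus, 18, 16 and 46 in spleen OX40plus, 2, 2, 14 and 6 in tumor OX40minus, and 1, 6, 0 and 20 in tumor OX40plus. Over the summed samples this is 0.966 CPM in spleen OX40minus and 1.09 in spleen OX40plus, against 0.217 and 0.256 in the tumor gates. The spleen level was 4.44 times the tumor level in OX40minus (95% interval from 2.77 to 7.38) and 4.25 times in OX40plus (2.72 to 6.84), intervals that cover counting error only. Single samples held much of these sums. The OX40plus ratio was 12.3 without tumor OX40plus mouse 4 (5.71 to 31.6) and 2.71 without spleen OX40plus mouse 3 (1.59 to 4.67), and the OX40minus ratio was 7.96 without tumor OX40minus mouse 3 (4.09 to 17.3). Because Spry2 entered the test through the tissue where it is higher, its ratios are a description. The gates could not be told apart, with differences of -0.18 ± 0.86 in tumors and 0.03 ± 0.99 in spleens.

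The order of the groups was thus tumor OX40minus, tumor OX40plus, spleen OX40plus, spleen OX40minus for Dusp1 and Dusp5. For Dusp10 it was tumor OX40minus, tumor OX40plus, spleen OX40minus, spleen OX40plus, and only the step between tissues was called (0.70 ± 0.12, adjusted p = 6.6e-05). Dusp2 and Spry1 stood higher in both spleen groups than in both tumor groups, and again only the step between tissues was called. Spry2 had the same order of tissues by its counts. For Dusp6 the order was spleen OX40minus, spleen OX40plus, tumor OX40minus, tumor OX40plus, with only the last step called and the middle one short of it (-0.47 ± 0.20, adjusted p = 0.0561, called in 7 of 25 alternative settings, among them without tumor OX40plus mouse 1, 2 or 3, at 0.0202 to 0.0474). These steps use the contrasts across gate and tissue. Tumor OX40minus against spleen OX40plus had 5 of the 6 members other than Spry2 called, 3 higher and 2 lower, where 57.8% of all genes were called, 28.7% higher and 29.1% lower. Dusp2 lost its call in that contrast without spleen OX40plus mouse 3 (-0.16, adjusted p = 0.174) or tumor OX40minus mouse 3 or 4 (0.0661 and 0.0533). Tumor OX40plus against spleen OX40minus had 6 of 6, 3 higher and 3 lower, where 67.1% were called, 31.5% higher and 35.6% lower. Without spleen OX40minus mouse 1 Dusp2 was short of the threshold there (adjusted p = 0.0522).

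**Figure D3:**
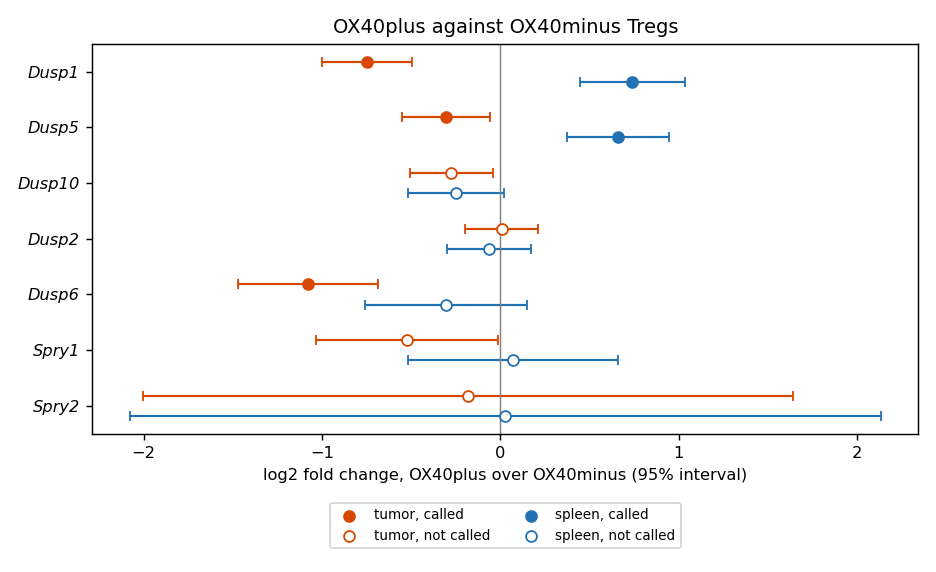
Log2 fold change of each gene between OX40plus and OX40minus Tregs in tumors and spleens, with 95% intervals, and filled points where the difference was called. Dusp1 and Dusp5 lie on opposite sides of 0 in the tissues, and Dusp6 has the lowest tumor value.

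**Figure D4:**
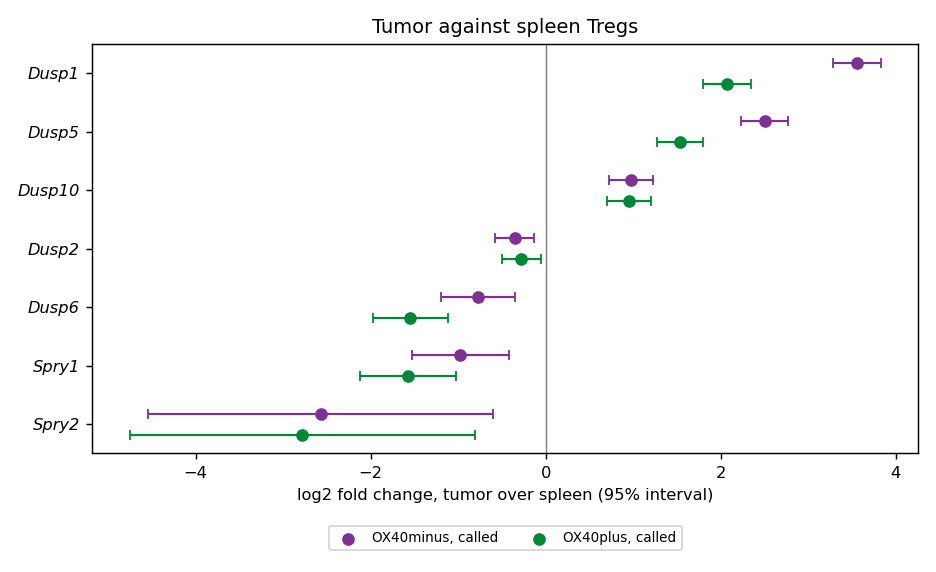
Log2 fold change of each gene between tumor and spleen Tregs in each gate, with 95% intervals. Dusp1, Dusp5 and Dusp10 lie above 0 and the other 4 genes below it, in both gates; Spry2 is drawn as fitted and its filled points are not counted as calls.

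The members had several orders of groups, so the genes nearest in profile were found for each alone. Likeness was measured as the root mean square difference of log2 CPM over the 14 samples after centring each gene, among 8623 candidate genes. Nearest to Dusp1 were Bhlhe40 (0.25), Aldoc (0.26) and Plk2 (0.31), and to Dusp5 Fam110a (0.20), Ccl5 (0.21) and Ccrl2 (0.21). For Dusp10 they were Irf1 (0.12), Eloa (0.12) and Arhgap1 (0.13), for Dusp6 Slc25a45 (0.22), Orai2 (0.23) and Tha1 (0.23), and for Spry1 Ticam1 (0.24), Zfp788 (0.24) and Letm2 (0.28). No gene came close to Spry2, with 0.87 for the nearest, Mef2c. Dusp2 was left out because its group means spanned under 1.

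Of 5 other MAPK phosphatase genes tested, 1 was higher and 1 lower in tumor OX40plus than in tumor OX40minus. In spleen OX40plus 1 was lower, where 3.60% of all genes were. Dusp8 passed the filter through its tumor samples, so no tissue call of it is counted. None of the others was called between tissues. The 2 of 5 called in tumors stand beside 38.5% of all genes. The median tumor OX40 difference of the 5 was 0.32. It is the value of Styxl1, which was not called (SE 0.86) and had means of 0.22 CPM in tumor OX40minus and 0.20 in tumor OX40plus. Dusp7, a cytoplasmic phosphatase for ERK, was at 99.9 ± 14.2 CPM (SD, n = 4) in tumor OX40minus and 62.0 ± 6.5 in tumor OX40plus, a difference of -0.68 ± 0.10 (adjusted p = 9e-05). It was also lower in spleen OX40plus (68.2 ± 2.9 against 91.6 ± 1.4 CPM, SD, n = 3), a difference of -0.43 ± 0.12 (adjusted p = 0.037). Dusp16, which encodes a phosphatase for JNK, went the other way in tumors, at 16.7 ± 3.6 CPM in OX40plus and 7.47 ± 1.46 in OX40minus (1.16 ± 0.20, adjusted p = 0.000259). Dusp8, another phosphatase for p38 and JNK, was near the limit in spleens, at 0.32 and 0.19 CPM, and stood at 2.76 ± 0.59 CPM in tumor OX40minus and 1.30 ± 0.74 in tumor OX40plus.

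Of 15 atypical DUSP genes listed, 7 were tested. Dusp14, a phosphatase that restrains T cell receptor signalling, was the one called in both gate contrasts, and it was higher in OX40plus in each. It was at 1.86 ± 0.33 CPM in spleen OX40minus, 3.85 ± 0.46 in spleen OX40plus, 14.4 ± 1.7 in tumor OX40minus and 22.7 ± 6.4 in tumor OX40plus. The OX40 difference was 1.07 ± 0.27 in spleens (adjusted p = 0.0189) and 0.63 ± 0.23 in tumors (adjusted p = 0.0398). In tumors Dusp14 was thus higher in OX40plus, where Dusp1 was lower. Between tissues 2 atypical genes were higher in tumors in each gate, with 2 lower in OX40minus and 1 lower in OX40plus. Of all genes, 29.7% were higher and 29.3% lower in OX40minus, and 30.3% higher and 34.2% lower in OX40plus.

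SPRED proteins, relatives of the Sprouty proteins, also restrain Ras. Of 3 such genes tested, none was called between gates, where 38.5% of all genes were in tumors and 7.99% in spleens. Between tissues 2 were lower in tumors in OX40minus, where 29.3% of all genes were, and 1 in OX40plus, where 34.2% were. Spred2 was at 43.3 ± 3.6 and 45.1 ± 6.9 CPM in the spleen gates, OX40minus first, and at 12.4 to 17.7 and 15.8 to 20.4 CPM in the tumor gates. Its tissue difference was -1.54 ± 0.16 in OX40minus (adjusted p = 4.2e-07) and -1.39 ± 0.16 in OX40plus (adjusted p = 9.56e-07). Spry1 and Spred2 were thus both lower in tumor Tregs of each gate.

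**Figure D5:**
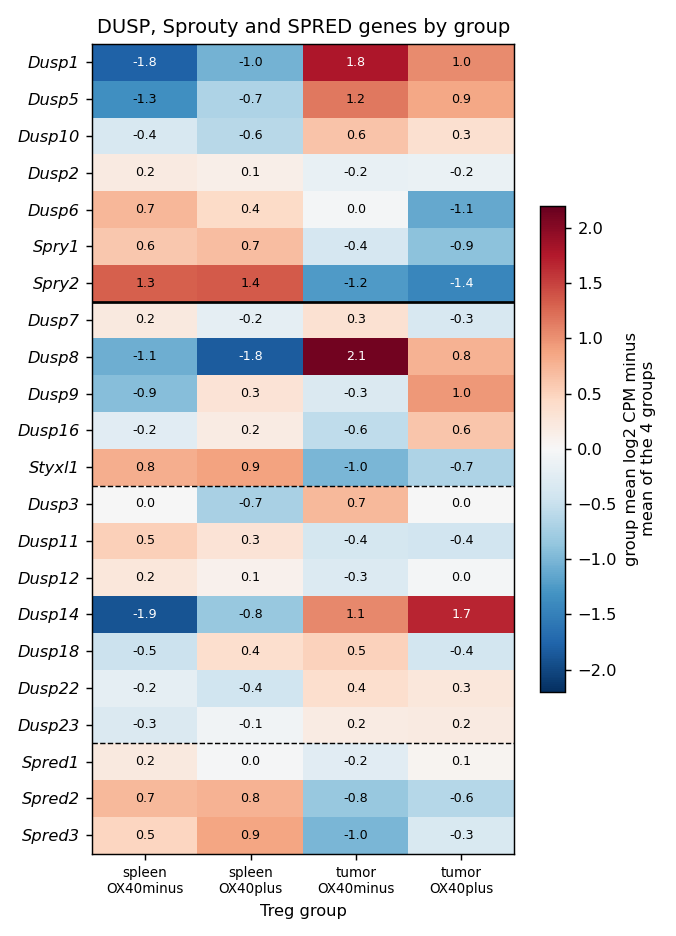
Group mean log2 CPM of each gene minus its mean over the 4 groups, from blue (lower) to red (higher), for the 7 members above the solid line and for other MAPK phosphatases, atypical DUSPs and SPRED genes below it. Dusp1 and Dusp5 run from blue in spleen to red in tumor, and Spry1, Spry2 and Spred2 run from red to blue.

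Genes of the ERK cascade, its kinases and Ras activators among them, were examined as well. Of 18 genes tested, 1 was higher and 4 were lower in tumor OX40plus than in tumor OX40minus, where 18.6% and 20.0% of all genes were, with a median of -0.13 against -0.07. In spleen OX40plus 1 was lower and none higher, where 3.60% and 4.39% of all genes were. Rasgrp2, an activator of Rap1 and a relative of RasGRP1, was at 252 ± 2 CPM in spleen OX40minus, 170 ± 18 in spleen OX40plus, 37.6 ± 5.7 in tumor OX40minus and 8.48 ± 2.16 in tumor OX40plus. Its tumor OX40 difference was -2.17 ± 0.16 (adjusted p = 1.35e-07). Rasgrp1 was lower in tumor OX40plus (-0.71 ± 0.10, adjusted p = 4.94e-05), as was Map2k1, which encodes MEK1 (-0.39 ± 0.06, adjusted p = 0.000147). Between tissues 6 were higher and 7 lower in OX40plus, where 30.3% and 34.2% of all genes were, and 5 higher and 2 lower in OX40minus, where 29.7% and 29.3% were. Among them was the scaffold gene Ksr1, lower in tumors in OX40plus (-3.15 ± 0.19, adjusted p = 5.86e-10) and in OX40minus (-2.88 ± 0.19, adjusted p = 2.31e-09).

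Genes commonly induced by ERK, the early response factors and their like, included both directions. Of 17 tested, 4 were higher and 9 lower in tumor OX40plus than in tumor OX40minus, where 18.6% and 20.0% of all genes were, with a median of -0.62 against -0.07 over all genes. Fos, an AP-1 subunit, was at 1274 ± 127 CPM in tumor OX40minus and 438 ± 41 in tumor OX40plus (-1.54 ± 0.11, adjusted p = 6.58e-08). Fosb (-1.70) and Junb (-1.05) were lower as well, and Myc was higher (0.82 ± 0.10, adjusted p = 9.25e-06). In spleens 3 were higher and 2 lower, where 4.39% and 3.60% of all genes were, with Egr2 higher (0.95 ± 0.25, adjusted p = 0.0227) and Jun lower (-0.85 ± 0.15, adjusted p = 0.00184). Fos itself was at 169 ± 13 CPM in spleen OX40minus and 140 ± 23 in spleen OX40plus and was not called (adjusted p = 0.236). Between tissues 10 were higher and 5 lower in OX40plus, where 30.3% and 34.2% of all genes were, and 9 higher and 4 lower in OX40minus, where 29.7% and 29.3% were. Fos, Fosb, Jun and Junb are also among the 16 dissociation genes. Of the 16, 11 were lower and 1 higher in tumor OX40plus, where 20.0% and 18.6% of all genes were. Between tissues 12 were higher in tumors in each gate, and 3 were lower in OX40plus.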

How the data were processed

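RNA was sequenced from 28 libraries of sorted Tregs. The tools named are kallisto, limma and bcl2fastq 2.19, and the build mm10, per the submitters' processing notes. The deposited values are log2 CPM, in the form of limma's voom, which adds 0.5 to a count. No source used here gives the scaling, the summary to genes or strand. Each library's lowest value gave its size and, by inversion, estimated counts, of which 46.6% to 51.2% were whole within 0.01.

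The 2 libraries of a mouse and gate had a median chi-square per gene of 0.495 to 0.578 (sampling alone gives 0.455) and were averaged, giving 14 samples. Genes with at least 0.382 CPM in 3 samples and 15 counts in all were kept. A single limma 3.58.1 model (R 4.3.3) with a mean-variance trend was fitted over the 4 groups, with no block. Relative log expression factors, for an alternative, were computed from the estimated counts. The model was tested on simulated data. The titles name the same mouse in both gates of a tissue, which pairs them; deviations of such samples correlated at -0.162 to 0.112 over 7 pairs. Whether a number marks the same mouse in tumor and spleen is not stated.

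The members and lists were chosen with earlier results of these data known. All members were named; from other lists, up to 4 genes with the smallest adjusted p per contrast were eligible, and Fos and Rasgrp1 are among these. For each member spanning at least 1 between group means, the 3 nearest profiles among genes with at least 10 CPM were named. Promoter windows came from RefSeq (GRCm38.p6), and all 7 members matched.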

Additional observations from a re-analysis of the deposited data

Results flagged for a closer look

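The OX40 difference of Dusp1 differed between tumor and spleen by -1.49 on the log2 scale, and that of Dusp5 by -0.97, each past the threshold in the test of the difference itself (limma adjusted p = 0.000129 and 0.0028). Both genes were higher in OX40plus in 3 of 3 spleen mice and lower in 4 of 4 tumor mice. No member had a tumor sample apart from its group of 4 by the gap test applied; spleen groups of 3 are too small for it.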

How the results depend on the processing

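Each contrast was refitted under 25 alternative settings (24 for the difference between tissues): other scalings, pseudocount, filters, either library of a pair, voom weights, the contrast's groups alone, a replicate block and each sample left out. One of them, leaving out both tumor OX40plus mouse 4 and spleen OX40plus mouse 3, was chosen after seeing the data, as were the Spry2 count ratios without single samples. No value of a called member changed sign. Dusp1 kept its calls throughout, with spleen OX40 differences of 0.64 to 0.92 and tumor ones of -0.79 to -0.70. Dusp6 stayed lower in tumor OX40plus (-1.26 to -0.94). Members called numbered 2 to 4 in the tumor OX40 contrast, 2 in every spleen setting, and, Spry2 included, 5 to 7 between tissues in each gate, 4 to 7 for tumor OX40minus against spleen OX40plus and 6 to 7 for tumor OX40plus against spleen OX40minus. With the mouse as a replicate block, 4 members were called in the tumor OX40 contrast, the addition being Spry1, and 2 in the spleen; a block on mouse number across tissues, whose identity is not stated, gave 6 in OX40plus, without Dusp2 (adjusted p = 0.0657), and 7 in OX40minus. Spleen calls over all genes rose from 999 to 1850 with the spleen groups alone and fell to 641 without spleen OX40plus mouse 1 and 649 without spleen OX40minus mouse 2; the cause was not tested. Scaling by library size alone moved the median of all genes between tissues in OX40plus from -0.13 to -0.23. Depth limits Spry2 most, which has 0 to 46 counts per sample.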

Other observations

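Genes induced by the T cell receptor, the Nr4a factors and their like, held members with gate differences of opposite direction in the tissues. Of 8 tested, 6 were higher in spleen OX40plus and none lower, against 4.39% and 3.60% of all genes, and 4 were lower in tumor OX40plus and none higher, against 20.0% and 18.6%. The difference between tissues was called in 7 of 8, all lower, with a median of -1.03 against -0.06 over all genes. Nr4a3 was higher in spleen OX40plus (0.95 ± 0.17, adjusted p = 0.00215) and lower in tumor OX40plus (-0.42 ± 0.15, adjusted p = 0.0371), and Nr4a1 likewise (0.71 ± 0.17 and -0.46 ± 0.15, adjusted p = 0.0157 and 0.0222); these were the only 2 of the 8 called in opposite directions. Nr4a2, Tox and Irf4 were higher in spleen OX40plus and had tumor differences of 0.04, -0.02 and 0.03, and Cd69 was lower in tumor OX40plus (-1.04 ± 0.10, adjusted p = 1.81e-06) with a spleen difference of -0.14.

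Of 15 genes of the p38 and JNK cascades, 1 was higher and 7 were lower in tumor OX40plus, and 1 was higher and 1 lower in spleen OX40plus. Over all genes these shares were 18.6% and 20.0% in tumors and 4.39% and 3.60% in spleens. Map2k3, which encodes a kinase that activates p38, was the one higher in both, at 53.0 ± 5.6 CPM in spleen OX40minus, 88.2 ± 2.4 in spleen OX40plus, 358 ± 16 in tumor OX40minus and 527 ± 19 in tumor OX40plus. Of 14 other inhibitors of Ras and ERK, 1 was higher and 4 lower in tumor OX40plus, and 1 higher and 2 lower in spleen OX40plus; the 5 of 14 called in tumors stand beside 38.5% of all genes, and the 3 of 14 in spleens beside 7.99%. Dgka, which removes the diacylglycerol that activates RasGRP1, was lower in OX40plus in tumors (-1.28 ± 0.08, adjusted p = 1.64e-08) and in spleens (-0.50 ± 0.09, adjusted p = 0.00203). Rasa3, a Ras GTPase-activating protein, was lower in both too (-1.42 ± 0.13 and -0.65 ± 0.15).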
